A study of Homo sapiens with 6 samples.

Results

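The 10 genes described here encode signals of the transforming growth factor beta (TGF-beta) and bone morphogenetic protein (BMP) families, their Smad effectors, their feedback inhibitors and their target genes. They were chosen with earlier results of these data known, and were taken by gene name from the deposited count table. All 10 were found among its 58735 genes: TGFB1, TGFB2, BMP4, SMAD3, SMAD6, SMAD7, SKIL, TGFBI, ID1 and ID3. RNA-seq was done on Mum-2b, a cell line that the labels call human uveal melanoma, a tumour of the pigment cells of the eye. Controls (named NC, genotype WT, n = 3) were compared with cells in which a short hairpin RNA lowered NELFCD, a subunit of the negative elongation factor that holds RNA polymerase II paused near the starts of genes (n = 3). All knockdown libraries carry the number of a single hairpin, so an off-target effect of that hairpin cannot be told apart from the loss of NELFCD. Whether the control cells carried a hairpin, and whether the replicates were separate cultures, was not given. The p-values below therefore measure only the spread between these libraries, which may be technical.

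TGF-beta ligands are secreted in a latent form, are held in the extracellular matrix by latent TGF-beta binding proteins, and signal through type II and type I receptor kinases to SMAD2 and SMAD3. BMP ligands use related receptors and signal to SMAD1, SMAD5 and SMAD9, with ID1, ID2 and ID3 as widely used target genes. SMAD7, SMAD6 and SKIL are induced by the pathway and restrain it, the inhibitory Smads at the receptors and SKIL as a nuclear corepressor. In melanocytes TGF-beta is known as a growth inhibitor, and melanoma cells often secrete it themselves.

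The libraries held 14306733 to 16656630 counts. NELFCD stood at 65.5 to 88.3 CPM in the controls and at 20.7 to 40.3 CPM in the knockdowns. CPM are counts scaled to the library total after TMM normalisation. Knockdown libraries 1 to 3 held 31.5%, 42.4% and 48.2% of the NELFCD level in the control of the same number. The first principal component (68.8% of the variance) separated replicate 1 of either group from the other libraries, and 9170 of 14844 genes tested (61.8%) differed between them in edgeR. Of 14 melanocyte markers 10 stayed under 1 CPM in every library, with PAX3, OCA2 and TRPM1 at 0. MC1R reached 11.8 CPM, TYRP1 9.17 CPM, MITF 5.38 CPM and MLANA 2.39 CPM. The keratin KRT8 ran from 452 to 901 CPM, but 4 of 6 epithelial markers stayed under 1 CPM in every library. The melanocyte programme of the labelled tumour type was thus low in these libraries. The summed CPM of the melanocyte markers ran from 12.7 to 22.8 in the controls and from 13.98 to 29.7 in the knockdowns. In bulk RNA, fewer cells that express a gene and less of its RNA per cell cannot be told apart.

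With NELFCD lowered, TGFBI, ID3, ID1 and TGFB1 rose and the inhibitory SMAD7 fell. The rises were 1.80-fold for TGFBI, 1.76-fold for ID3, 1.54-fold for ID1 and 1.20-fold for TGFB1, and SMAD7 was left at 66.2% of its control level. SMAD3, SKIL, SMAD6 and BMP4 did not pass the test, and TGFB2, at 3 to 26 counts per library, lay under the filter on low counts. These calls come from edgeR's quasi-likelihood test with the replicate number as a term, here the paired fit, at a Benjamini-Hochberg adjusted p under 0.05 over all genes. In that fit 5 of 9 tested genes passed, 4 up and 1 down, beside 13.5% of all genes tested (5.48% up and 8.01% down). The median log2 fold change of the 9 was 0.26, beside 0.00010 over all genes. Because the genes were chosen with earlier results known, these shares are only a description. Without the replicate term (the unpaired fit) edgeR called 0 of the 9 and 0 of all genes, with 2 of the 9 and 954 of all genes at an unadjusted p under 0.05. There DESeq2 called 0 of the 9 and 161 of all genes, and limma-voom called none in either set. Where "rose" or "fell" is written, the gene passed in the paired fit.

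**Figure D1:**
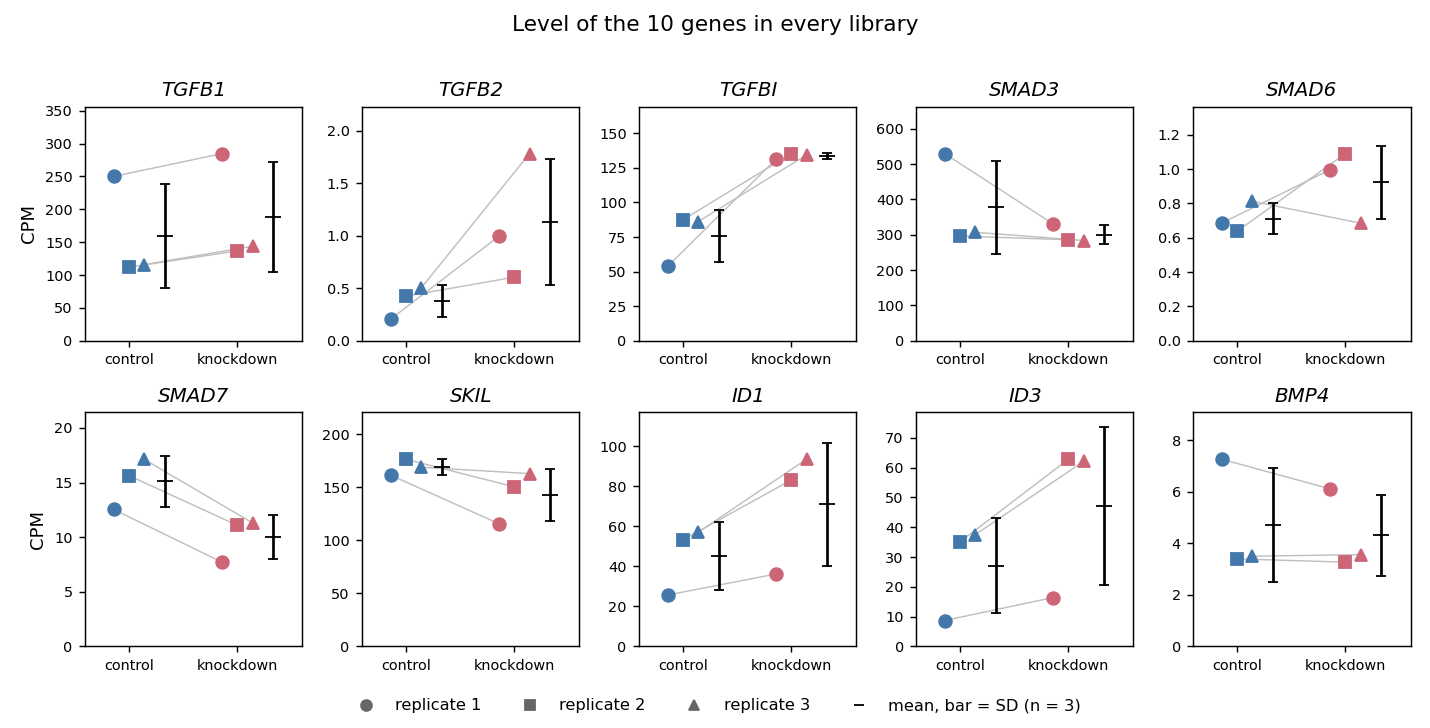
CPM of each of the 10 genes in every library, with control libraries in blue and knockdown libraries in red, symbols for replicates 1 to 3, grey lines joining equal replicate numbers, and the mean with its SD (n = 3) in black. The knockdown libraries lie above all controls for TGFBI (131 to 135 CPM against 53.8 to 87.3), and replicate 1 lies far from replicates 2 and 3 for TGFB1, ID1, ID3 and BMP4.

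Of the 3 ligand genes TGFB1 was the most abundant per length. It rose, BMP4 did not pass, and TGFB2 lay under the filter on low counts. TGFB1 (ENSG00000105329, chromosome 19, 41301587 to 41353911, minus strand, hg38), the main TGF-beta isoform of most tissues, stood at 250, 112 and 116 CPM in control replicates 1 to 3 and at 285, 137 and 144 CPM in knockdown replicates 1 to 3. Each knockdown library was higher than the control of the same number, by 1.14, 1.22 and 1.24 times, while the groups overlapped because replicate 1 of either group lay far above its companions. The log2 fold change was 0.26 ± 0.060 (SE, adjusted p = 0.024 in edgeR's paired fit), and 0.30 in replicates 2 and 3 alone (adjusted p = 1.5e-06). The call was lost without replicate 2 (adjusted p = 0.20), without replicate 3 (0.22) and in DESeq2's paired fit (0.068). Of the exon bases of TGFB1, 6.64% are shared with HNRNPUL1 on the opposite strand. Whether the counting used strand was not given.

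TGFB2 (ENSG00000092969, chromosome 1, 218346235 to 218444619, plus strand), also a TGF-beta isoform, was close to the limit of detection. Its counts were 3, 6 and 8 in control replicates 1 to 3 and 15, 10 and 26 in knockdown replicates 1 to 3. All knockdown libraries were higher than all controls, but the 95% Poisson interval of control replicate 3 (0.214 to 0.979 CPM of total counts) overlapped that of knockdown replicate 2 (0.288 to 1.10). Those intervals cover counting error only. With no filter on low counts the log2 fold change was 1.51 ± 0.53 (SE, adjusted p = 0.045) in the paired fit and 1.53 (adjusted p = 0.84) in the unpaired fit of edgeR. Exons of TGFB2 share 26.6% of their bases with TGFB2-OT1 on the same strand, so part of these few counts is uncertain.

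BMP4 (ENSG00000125378, chromosome 14, 53949736 to 53958761, minus strand), a BMP ligand, stood at 7.26, 3.40 and 3.50 CPM in the controls and at 6.11, 3.27 and 3.56 CPM in the knockdowns. The difference between replicate 1 and the others was larger than any difference between the groups. Its log2 fold change was -0.11 ± 0.19 (SE, adjusted p = 0.75 in edgeR's paired fit), so a change was not detectable at 48 to 106 counts per library.

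TGFBI had the largest estimated rise of the 9 tested genes, close to that of ID3. TGFBI (ENSG00000120708, chromosome 5, 136028895 to 136063818, plus strand) encodes a secreted matrix protein that binds integrins and is named for its induction by TGF-beta. It stood at 53.8, 87.3 and 86.05 CPM in the controls and at 131, 135 and 134 CPM in the knockdowns. The groups did not overlap, and the 3 knockdown libraries lay close together while control replicate 1 lay below the other controls. The mean was 75.7 ± 19.0 CPM in the controls and 134 ± 2.06 CPM in the knockdowns (SD, n = 3). The estimated log2 fold change was 0.85 ± 0.13 (SE, adjusted p = 0.0072 in edgeR's paired fit, 0.58 in the unpaired fit). The ratio of knockdown to control was 2.44 in pair 1 against 1.55 and 1.56 in pairs 2 and 3. The log2 difference between pairs was 0.65 in edgeR's interaction fit, although the labels give no reason to set pair 1 apart. Pair 1 is 1 library a group, so that fit cannot measure the spread of its effect. The exact two-sided permutation p over the 6 libraries was 0.1, the smallest that 3 against 3 allow. The 250 bases before the start of TGFBI in RefSeq (chr5:136028738-136028987, plus strand, GRCh38.p14) are shown because TGFBI had the largest estimate in the paired fit. The value in replicates 2 and 3 alone was 0.64, below ID3 (0.78) and ID1 (0.68). Capitals mark the GC-rich Smad element GGCGCC, found 111 bases before the start.
TGFBI promoter: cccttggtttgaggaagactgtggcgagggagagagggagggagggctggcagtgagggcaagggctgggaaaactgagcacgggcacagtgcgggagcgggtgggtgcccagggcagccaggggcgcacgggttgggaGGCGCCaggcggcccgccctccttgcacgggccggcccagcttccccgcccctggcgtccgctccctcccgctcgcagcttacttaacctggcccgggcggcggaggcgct

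ID1 and ID3 rose, with the knockdown library above the control in every replicate pair. Both encode inhibitors of basic helix-loop-helix transcription factors and are textbook BMP target genes. ID1 (ENSG00000125968, chromosome 20, 31605283 to 31606515, plus strand) stood at 25.7, 53.2 and 57.0 CPM in the controls and at 36.2, 83.2 and 93.5 CPM in the knockdowns. Its ratio of knockdown to control was 1.41, 1.56 and 1.64 in pairs 1 to 3, a log2 fold change of 0.63 ± 0.073 (SE, adjusted p = 0.0018 in edgeR's paired fit). ID3 (ENSG00000117318, chromosome 1, 23557918 to 23559794, minus strand) stood at 8.70, 35.04 and 37.5 CPM in the controls and at 16.4, 62.8 and 62.1 CPM in the knockdowns. Here the ratios were 1.89, 1.79 and 1.66, a log2 fold change of 0.82 ± 0.083 (SE, adjusted p = 0.00098 in edgeR's paired fit). For both genes the groups overlapped, since knockdown replicate 1 lay below control replicates 2 and 3, and in the unpaired fit edgeR's adjusted p was 0.9999. Replicate 1 lay below replicates 2 and 3 by 1.20 (ID1) and 1.98 (ID3) on the log2 scale.

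The windows of 250 bases before the RefSeq starts of ID1 (chr20:31605039-31605288, plus strand) and ID3 (chr1:23559502-23559751, minus strand, both GRCh38.p14) are shown because these genes moved together. Capitals mark the Smad box CAGAC, found in ID3 at 147 bases before the start. None of the 3 Smad motifs searched is in the ID1 window, where TATAAA lies 33 and 31 bases before the start, on opposite strands and overlapping.
ID1 promoter: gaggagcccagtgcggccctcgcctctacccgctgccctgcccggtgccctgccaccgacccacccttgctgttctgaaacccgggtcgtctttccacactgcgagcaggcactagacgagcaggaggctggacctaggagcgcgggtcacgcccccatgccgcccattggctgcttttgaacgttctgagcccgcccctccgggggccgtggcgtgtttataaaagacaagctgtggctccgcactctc
ID3 promoter: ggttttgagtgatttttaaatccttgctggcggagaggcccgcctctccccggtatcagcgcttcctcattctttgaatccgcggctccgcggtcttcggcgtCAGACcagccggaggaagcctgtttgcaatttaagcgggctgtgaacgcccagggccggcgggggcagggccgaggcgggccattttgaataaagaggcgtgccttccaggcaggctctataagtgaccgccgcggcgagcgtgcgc

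SMAD7 was the member that fell. SMAD7 (ENSG00000101665, chromosome 18, 48919853 to 48952052, minus strand) is the inhibitory Smad that recruits ubiquitin ligases to activated TGF-beta receptors, and its transcription is induced by TGF-beta itself. It stood at 12.5, 15.6 and 17.1 CPM in the controls and at 7.71, 11.1 and 11.3 CPM in the knockdowns. The groups did not overlap, and knockdown libraries 1 to 3 held 61.5%, 70.9% and 66.0% of the control of the same number. The mean was 15.1 ± 2.34 CPM in the controls and 10.03 ± 2.02 CPM in the knockdowns (SD, n = 3). The estimated log2 fold change was -0.59 ± 0.12 (SE, adjusted p = 0.013 in edgeR's paired fit, 0.71 in the unpaired fit). SMAD7 has 3 start windows in the RefSeq table, and gene counts do not say which start was used. The most upstream window (chr18:48950966-48951215, minus strand, GRCh38.p14) is shown as that of the gene that moved against the others, with its Smad boxes CAGAC, 217 and 128 bases before the start, in capitals.
SMAD7 promoter: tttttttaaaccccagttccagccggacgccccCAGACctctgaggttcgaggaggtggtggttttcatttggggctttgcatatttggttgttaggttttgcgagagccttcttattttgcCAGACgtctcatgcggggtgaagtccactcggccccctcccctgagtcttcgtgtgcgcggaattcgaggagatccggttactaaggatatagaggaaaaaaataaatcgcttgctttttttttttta

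The other Smad and feedback genes did not pass in the paired fit. SMAD3 (ENSG00000166949, chromosome 15, 67063763 to 67195195, plus strand), the receptor-activated Smad that binds DNA in response to TGF-beta, stood at 530, 296 and 307 CPM in the controls and at 331, 286 and 284 CPM in the knockdowns. Control replicate 1 was far above all other libraries, and without replicate 1 the knockdowns lay a little below the controls. Its log2 fold change was -0.28 ± 0.12 (SE, adjusted p = 0.16 in edgeR's paired fit). It came to -0.084 without replicate 1 and to -0.37 without replicate 3, and both of these passed (adjusted p = 0.036 and 0.024). Replicates 2 and 3 alone did not pass without the replicate term (-0.084, adjusted p = 0.085). With no filter on low counts SMAD3 passed as well (-0.30, adjusted p = 0.00055). The difference was larger in pair 1, with 1 library a group, than in pairs 2 and 3 by -0.60 on the log2 scale. Of its exon bases 2% are shared with AC087482.1 on the opposite strand.

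SKIL (ENSG00000136603, chromosome 3, 170357678 to 170396835, plus strand), which encodes the corepressor SnoN, stood at 161, 176 and 169 CPM in the controls and at 116, 150 and 163 CPM in the knockdowns. Knockdown replicate 3 lay within the range of the controls. The log2 fold change was -0.25 ± 0.083 (SE, adjusted p = 0.077 in edgeR's paired fit) and was lower in pair 1 than in pairs 2 and 3 (by -0.34). In replicates 2 and 3 alone it was -0.14 and passed (adjusted p = 0.013). Over the paired fit, its alternatives and the fits without replicate 1, 12 in all, SKIL passed in 5, without a change of sign.

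SMAD6 (ENSG00000137834, chromosome 15, 66702228 to 66782848, plus strand), the inhibitory Smad that acts mainly on BMP signals, held 10, 9 and 13 counts in control replicates 1 to 3, against 15, 18 and 10 counts in the knockdown replicates. Its 95% Poisson intervals overlapped in every pair, and the log2 fold change of 0.36 ± 0.40 (SE, adjusted p = 0.60 in edgeR's paired fit) was within its error. A change was not detectable at this depth.

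**Figure D2:**
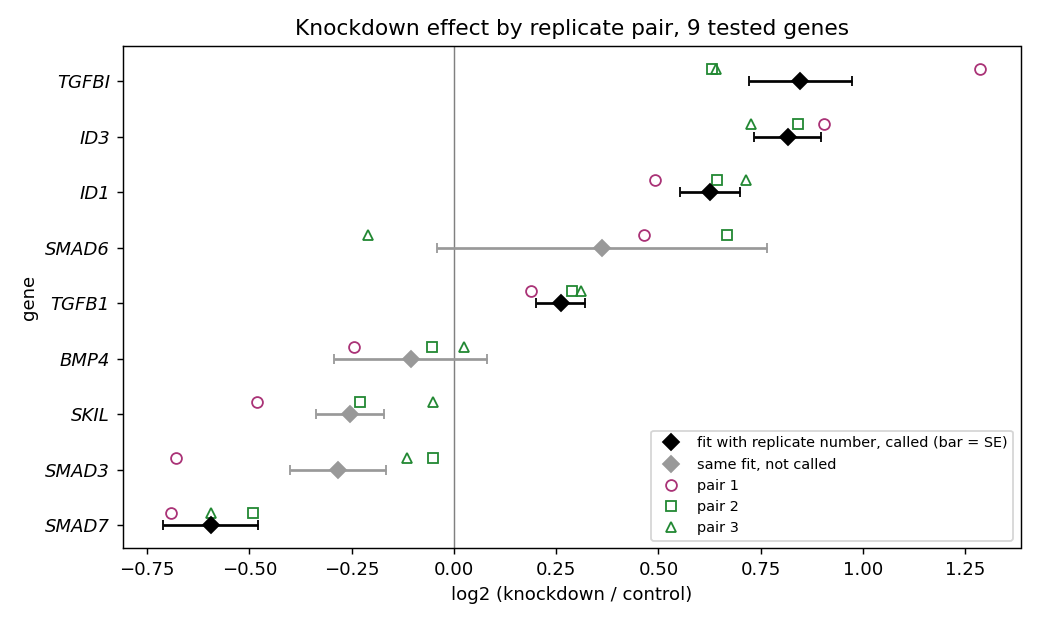
Log2 ratio of knockdown to control for the 9 tested genes, as the paired fit's estimate with its SE (black where called, grey where not) and as the single values of pair 1 (purple) and pairs 2 and 3 (green). The 3 pairs lie on the same side of 0 for 7 of the 9 genes, and pair 1 lies well apart from pairs 2 and 3 for TGFBI and SMAD3.

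The sign of the difference was the same in all 3 pairs for 7 of the 9 tested genes, beside 52.7% of all genes tested. The groups did not overlap for 2 of the 9, TGFBI and SMAD7, beside 14.9% of all genes. Without replicate 1 they did not overlap for 7 of the 9, beside 59.7% of all genes with 2 libraries a group. In replicates 2 and 3 alone 4 of the 9 rose and 2 fell in edgeR, beside 25.3% of all genes called there, and the second fall was SKIL. The size of the effect differed between pair 1 and pairs 2 and 3 for 3 of the 9 (TGFBI, SMAD3 and SKIL), beside 13% of all genes in the same interaction test. The pair 1 effect was the higher one for TGFBI (5.06% of all genes) and the lower one for SMAD3 and SKIL (7.96%).

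Replicate 1 differed from replicates 2 and 3 more than the groups differed for 6 of the 9 genes. TGFB1 (log2 difference 1.08), BMP4 (0.96) and SMAD3 (0.52) were higher in replicate 1, and ID3 (-1.98), ID1 (-1.20), SMAD7 (-0.46) and SKIL (-0.26) were lower. These 7 passed in edgeR, beside 61.8% of all genes (31.6% higher and 30.2% lower). Proliferation genes moved with the same libraries and with the knockdown. All 16 were lower in replicate 1 (median -1.54), beside 30.2% of all genes. In the paired fit 9 fell and 0 rose (median -0.28), beside 8.01% and 5.48% of all genes. Replicates 2 and 3 alone gave 13 falls and 0 rises, beside 13.7% and 11.7%. Their summed level was 1933 to 4999 CPM in the controls and 1483 to 4492 CPM in the knockdowns. Markers of other cell types were mostly too low for the test or not called. Of 6 endothelial markers 3 were tested and 1 fell, CDH5, from 140 to 53.7 CPM (-1.38). Of 8 fibroblast markers 2 were tested and 1 fell, FAP, from 5.36 to 2.88 CPM (-0.91). Of 6 epithelial markers 2 were tested and 1 rose, KRT18, from 364 to 499 CPM (0.49). Over all genes tested, 8.01% fell and 5.48% rose. All 6 leukocyte markers stayed under 1 CPM. The part of these genes in the changes of the 10 genes was not tested.

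**Figure D3:**
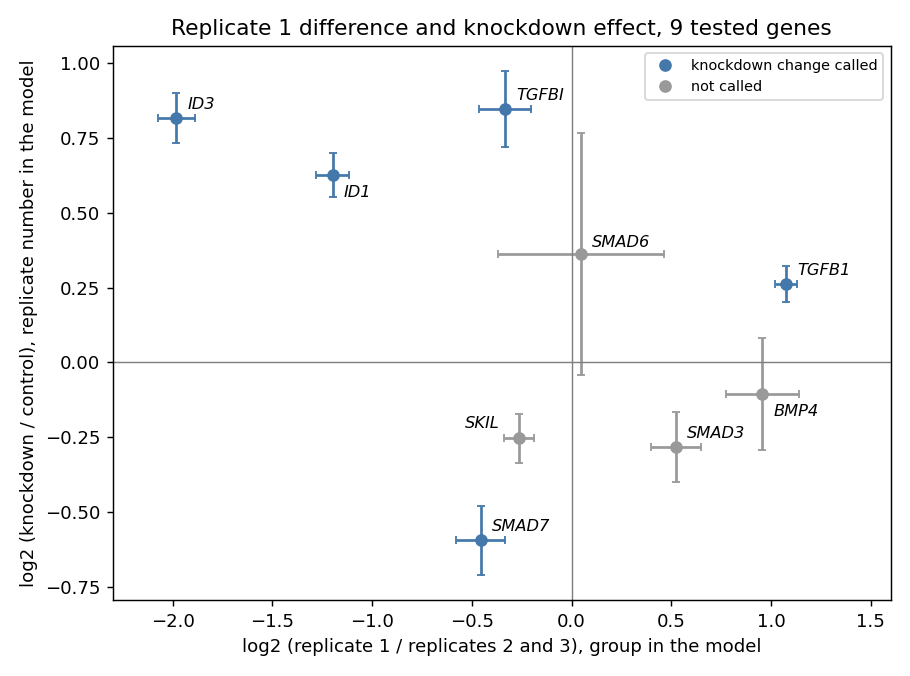
Log2 difference of replicate 1 from replicates 2 and 3 (horizontal axis, group in the model) against the log2 knockdown effect (vertical axis, replicate number in the model) for the 9 tested genes, each with its SE, in blue where the knockdown change was called. ID3 and ID1 lie at -1.98 and -1.20 on the horizontal axis with rises of 0.82 and 0.63, while TGFB1 lies at 1.08 with a rise of 0.26.

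Levels are compared between genes on the deposited FPKM scale, which divides by gene length. In the controls the order was TGFB1 (48.8 ± 23.3 FPKM, SD, n = 3), SMAD3 (41.2 ± 13.7), ID1 (36.8 ± 14.2), SKIL (21.7 ± 1.23), ID3 (15.1 ± 8.98), TGFBI (9.69 ± 2.54), SMAD7 (2.996 ± 0.50), BMP4 (1.52 ± 0.69), SMAD6 (0.083 ± 0.011) and TGFB2 (0.073 ± 0.030). Each of the first 5 genes overlapped the next in this order within 1 SD of either mean, as did SMAD6 and TGFB2, while TGFBI and SMAD7, SMAD7 and BMP4, and BMP4 and SMAD6 did not. In the knockdowns ID1 (57.0 ± 25.3 FPKM) and TGFB1 (56.9 ± 23.8) headed the order, followed by SMAD3 (32.4 ± 2.12), ID3 (26.0 ± 14.9), SKIL (18.1 ± 3.44) and TGFBI (16.9 ± 0.62). The gene lengths equal the union of all annotated exons, which lowers the FPKM of genes whose main transcript is much shorter than that union.

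As a description over the 6 libraries, the protein-coding genes whose log2 CPM followed TGFBI most closely were BCS1L (Pearson 0.997), LPAR3 (0.997) and TRAP1 (0.9904). Those nearest to SMAD7 were MEIOC (0.998), SELENON (0.997) and FRS2 (0.997). These 6 points share the replicate and group differences, and 12159 genes were searched.

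The 10 genes have 18 windows of 250 bases before RefSeq starts, some genes having more than 1. Of these windows 12, from 8 genes, hold at least 1 of the 3 Smad motifs. The share of all RefSeq windows with any of the 3 was not computed, so this count has no background beside it. The Smad box CAGAC is in 9 of the 18 windows, beside 38% of all 35116 RefSeq windows, counting either strand. GGCGCC is in 4 windows, beside 16.4%, and the AP-1 element TGANTCA in 1, beside 6.57%. TATAAA is in 3, beside 10.7%, and the GC box GGGCGG in 8, beside 42.6%. The palindrome of GTCT followed directly by AGAC is in 0.182% of all windows. Of the 18 windows only that of SMAD6 holds it, 12 bases before the start. Bases outside these windows were not searched, so the other genes may hold any of these motifs elsewhere. None of the motifs searched contains another. The RefSeq starts differ from the gene coordinates given above. The ID3 window and the SMAD7 window shown lie within those coordinates, and the TGFBI and ID1 windows overlap them in part. A match is a description of letters and not a measured binding site.

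Beyond these 10 genes, most pathway genes that changed were lower in the knockdown. Of 82 tested genes in 8 lists of ligands, matrix storage, antagonists, receptors, Smads, regulators and targets, 20 fell and 4 rose in edgeR's paired fit. That is 24.4% down and 4.88% up, beside 8.01% and 5.48% of all genes tested, and the median was -0.093. Because the lists too were chosen with earlier results known, these shares are only a description. A further 29 of the 111 listed genes had too few counts for the test. Over the paired alternatives the counts ran from 14 falls and 1 rise (without replicate 2) to 28 falls and 12 rises (without replicate 1). With upper-quartile scaling there were 17 falls and 5 rises, while the split of all called genes moved from 40.6% to 54.9% rising. The unpaired edgeR fit called 0 of the 82, and DESeq2 there called 3, all falls.

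In the list of other ligands, 3 genes fell and 1 rose of 10 tested, out of 24 listed (median -0.32), and 1 of the falls is no ligand. Over all genes tested, 8.01% fell and 5.48% rose. INHBB, the activin beta B chain, stood at 2.33, 5.31 and 6.94 CPM in the controls and at 0.665, 1.33 and 2.06 CPM in the knockdowns, with no overlap (log2 fold change -1.85 ± 0.24, SE, adjusted p = 0.0028 in edgeR's paired fit). INHBA, the activin beta A chain, fell from 134 ± 14.2 to 95.3 ± 26.8 CPM (SD, n = 3; log2 fold change -0.53). BMP1 fell by 0.73 on the log2 scale. Despite its name it is a metalloprotease that processes procollagen. BMP2, a BMP ligand, rose from 26.7 to 38.7 CPM (0.48), though its groups overlapped. GDF11 (0.08) and BMP6 (-0.11) did not pass. In replicates 2 and 3 alone 3 genes of the list fell and 2 rose, beside 13.7% and 11.7% of all genes. The second rise there was TGFB3, another TGF-beta isoform, named after its values were seen. TGFB3 had a log2 fold change of 1.11 in those libraries (adjusted p = 0.0061 in edgeR) and of 0.99 in the paired fit, where it did not pass (adjusted p = 0.091).

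Genes of latency and matrix storage fell in 3 cases and rose in 0 of 10 tested (median -0.11). All genes tested fell in 8.01% and rose in 5.48%. Replicates 2 and 3 alone gave 5 falls and 2 rises in this list, beside 13.7% and 11.7% of all genes. LTBP1, which tethers latent TGF-beta to the matrix, stood at 10.1, 3.75 and 3.31 CPM in the controls and at 1.86, 0.909 and 1.30 CPM in the knockdowns. Every knockdown library lay below every control (log2 fold change -1.996 ± 0.27, SE, adjusted p = 0.0036 in edgeR's paired fit). LTBP2 fell from 69.5 to 38.1 CPM (-0.88). Its knockdown libraries held 83.6% of control in pair 1, and 43.0% and 44.4% in pairs 2 and 3. LTBP4 fell from 204 to 164 CPM (-0.32). Its groups overlapped, with replicate 1 of either group (416 and 335 CPM) far above the other libraries. LTBP3 (0.10) and the fibrillin FBN2 (-0.44) did not pass in the paired fit. In replicates 2 and 3 alone LTBP3 passed upward (0.24, adjusted p = 0.00012) and FBN2 downward (-0.19, adjusted p = 0.00029) in edgeR. Extracellular antagonists fell in 3 cases and rose in 0 of 7 tested (median -0.29), beside the same shares of all genes in the paired fit. The 3 were the follistatin-like FSTL3 (-0.65), the chordin-like BMP antagonist CHRDL1 (-0.60) and TWSG1 (-0.55), which works with chordin. NBL1 (0.12) and noggin, NOG (-0.16), did not pass.

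Receptor genes fell in 3 cases and rose in 0 of 14 tested (median -0.06), while 8.01% of all genes fell and 5.48% rose. The co-receptor betaglycan, TGFBR3, stood at 18.7, 24.3 and 23.3 CPM in the controls and at 9.04, 13.3 and 16.7 CPM in the knockdowns (log2 fold change -0.79 ± 0.13, SE, adjusted p = 0.0069 in edgeR's paired fit). The type I receptors TGFBR1 (-0.52) and BMPR1A (-0.45) fell as well, and in all 3 genes the groups did not overlap. The type II receptor TGFBR2 was at 210, 215 and 216 CPM in the controls and at 90.7, 180 and 172 CPM in the knockdowns. Its libraries did not overlap either, but pair 1 was far below pairs 2 and 3, and its log2 fold change of -0.59 did not pass (adjusted p = 0.11 in edgeR's paired fit). The co-receptor endoglin, ENG (0.02), did not pass.

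Of the 21 tested genes in the lists of other Smads and Smad regulators, 4 (19%) passed, beside 13.5% of all genes. Among 5 other Smads SMAD5, a BMP-activated Smad, fell by 0.27 on the log2 scale, and SMAD2 (-0.06) and the common partner SMAD4 (-0.17) did not pass. Of 16 tested regulators 2 rose and 1 fell (median -0.09). The ubiquitin ligase NEDD4L (0.35) and the deubiquitinase USP15 (0.24) rose, and the phosphatase PPM1A (-0.29) fell. The ligase SMURF2 (-0.09) and STRAP (0.06) did not pass.

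Of 13 tested genes in the list of other TGF-beta targets, 6 fell and 0 rose in the paired fit (median -0.36), beside 8.01% and 5.48% of all genes. With replicates 2 and 3 alone 7 fell and 3 rose, beside 13.7% and 11.7%. The cytokine IL11 fell from 3.96 ± 4.59 to 0.768 ± 0.89 CPM (SD, n = 3; log2 fold change -2.34), with overlapping groups and the highest level in control replicate 1. PDGFB (-1.73), the transcription factor SNAI2 (-0.90) and LTBP2, which is also in the storage list, fell without overlap. BHLHE40, a transcription factor named after its values were seen, fell as well (-0.52), with control replicate 1 far above the other controls. CTGF (0.44) and KLF10 (0.17) did not pass in the paired fit. In replicates 2 and 3 alone CTGF (0.14, adjusted p = 0.0023) and KLF10 (0.18, adjusted p = 0.00087) passed upward in edgeR, as did JUNB (0.35), named after its values were seen.

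Of 8 tested genes in the list of other BMP targets, 1 rose and 1 fell (median 0.17), beside 13.5% of all genes called. In replicates 2 and 3 alone 3 rose and 2 fell, beside 25.3%. ID2, of the same family as ID1 and ID3, rose from a low level, standing at 0.548, 1.13 and 1.13 CPM in the controls and at 2.92, 2.24 and 2.26 CPM in the knockdowns (log2 fold change 1.40 ± 0.36, SE, adjusted p = 0.036 in edgeR's paired fit). The Notch and BMP target HEY1 fell from 9.42 ± 4.92 to 4.85 ± 0.96 CPM (SD, n = 3; -0.88). GATA2 (0.21) and MSX1 (-0.31) did not pass in the paired fit.

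**Figure D4:**
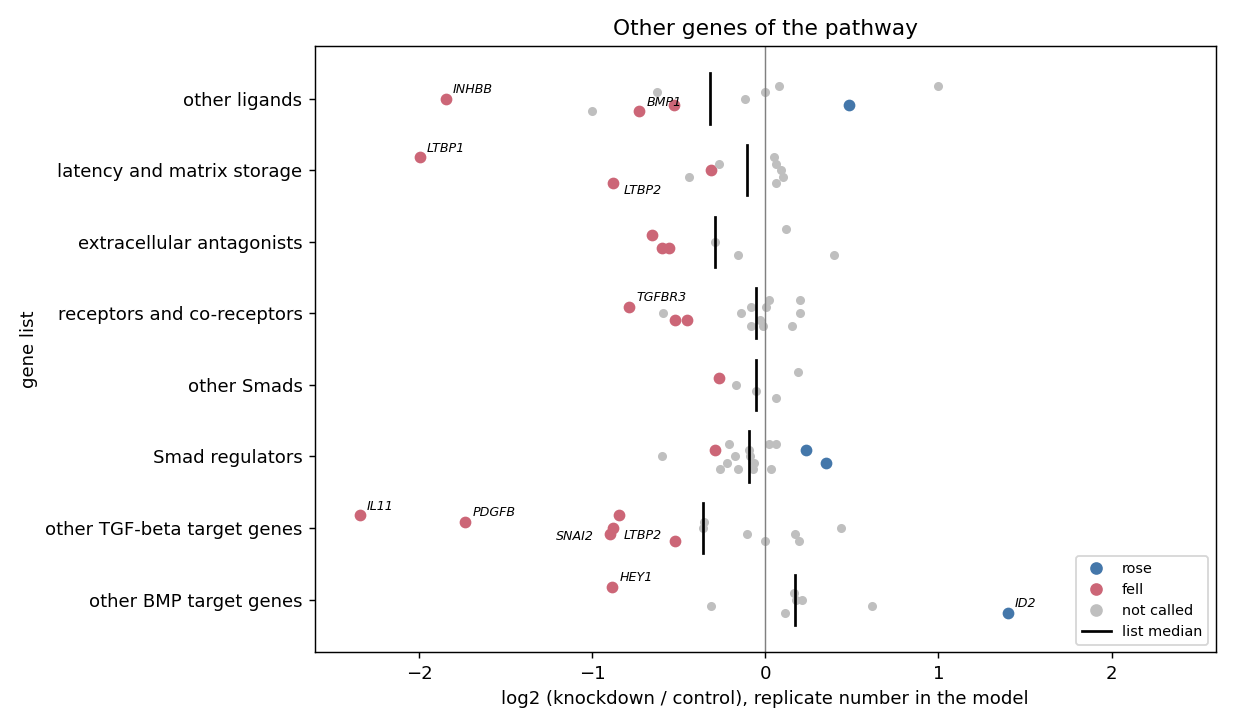
Log2 knockdown effect in the paired fit for each tested gene of the 8 pathway lists, in blue where it rose, red where it fell and grey where it was not called, with each list's median as a black line. Falls outnumber rises in 6 lists, reach -2.34 for IL11 and -1.996 for LTBP1, and ID2 at 1.40 is the largest rise.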

How the data were processed

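Gene counts of 6 RNA-seq libraries (3 control, 3 knockdown) were used as the authors deposited them, as raw counts per Ensembl gene. The deposited FPKM table was used only to compare levels between genes. Per the submitters' processing notes, hg38 was the genome build. Aligner, counter and strand setting are not given in the sources used here, nor is which of the 2 extraction kits named in the labels each library had. Coordinates of the 10 genes matched GENCODE 29.

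Genes were kept by filterByExpr (14844 genes) and scaled by TMM. Tests were edgeR 4.0.16 quasi-likelihood F-tests in R 4.3.3, with DESeq2 1.42.0 and limma 3.58.1 (voom) as alternatives. Only the edgeR fits were run on simulated data, in which libraries of equal replicate number shared a level. That simulation assumed the pairing and cannot show that it holds in these libraries. The SE is the log2 fold change divided by the square root of F. The unpaired fit was the chosen design, and the paired fit added the replicate number. Equal numbers deviated together from their group means (correlations 0.838, 0.629 and 0.616), which was the planned ground for reporting the paired fit. Because replicate 1 stood far apart in both groups, its distance largely sets the deviations of replicates 2 and 3 too. The correlations therefore cannot show that number 2 pairs with 2, or 3 with 3. The labels name no shared culture or day. The paired fit leaves 2 residual degrees of freedom. Counts of replicates 2 and 3 differed by more than sampling noise, with chi-square over its degrees of freedom 2.09 in the knockdowns and 2.23 in the controls. By the same measure replicate 1 against 2 gave 107 in the knockdowns and 111 in the controls. The p-values from replicates 2 and 3 alone therefore rest on a small spread.

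The members and lists were chosen with earlier results of these data known. Named were all 10 members and, per list, up to 4 called genes of largest change at 1 CPM or more and 2 uncalled genes of highest level. Promoter windows come from RefSeq (GRCh38.p14); all 10 symbols matched. A result for 1 list gene is not reported here.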

Additional observations from a re-analysis of the deposited data

How the results depend on the processing

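The replicate number decided the calls. In the fit without it, 0 genes, 0 of the 9 tested members and 0 pathway list genes passed; adding the replicate block gave 2002, 5 and 24, and replicate 1 as a batch term gave 3117, 6 and 29. Replicates 2 and 3 alone gave 3758, 6 and 38, a setting chosen for the paired fit after seeing the data. DESeq2 without the block called 161 genes and 3 pathway genes. With the block, no filter on low counts called 8 of 10 members. Leaving out each pair from the paired fit gave 932 to 4090 genes, 4 to 7 members and 15 to 40 pathway genes. TGFBI, ID1, ID3 and SMAD7 passed in all 12 fits that kept the replicate number or batch term or left replicate 1 out, TGFB1 in 9, SKIL in 5, SMAD3 in 3, and SMAD6 (10 fits) and BMP4 (11 fits) in 0, with no change of sign among these 9 genes. Leaving out single libraries from the unpaired fit, BMP4 ran from -0.47 to 0.32 and TGFB1 from -0.19 to 0.72 on the log2 scale, both changing sign. TGFBI differed between replicate 1 and the others at an adjusted p = 0.046 with DESeq2 size factors and 0.057 with TMM in edgeR. Depth limits TGFB2 (3 to 26 counts per library) and SMAD6 (9 to 18).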
